A study of Mus musculus with 24 samples.

Results

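The Hox genes encode homeodomain transcription factors that lie in 4 clusters of the mouse genome. All 39 gene symbols made of Hox, a cluster letter from a to d and a paralog number were taken as members, out of 24195 symbols counted. They comprised 11 genes of the Hoxa cluster on chromosome 6, 10 of the Hoxb cluster (chr11:96194316-96368256, mm10), 9 of the Hoxc cluster (chr15:102921103-103036852) and 9 of the Hoxd cluster (chr2:74668310-74765142). The members were set by name, and the family was chosen with earlier results of these data known.

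In the embryo, Hox genes are switched on along each cluster in order, so that genes with low paralog numbers act in the hindbrain and those with high numbers towards the tail and in the limbs. In the female reproductive tract, Hoxa9, Hoxa10, Hoxa11 and Hoxa13 mark the future oviduct, uterus, lower uterus with cervix, and upper vagina in that order, and females lacking Hoxa10 or Hoxa11 fail to support implantation. Polycomb complexes keep Hox clusters silent and trithorax complexes keep them active, and Hox proteins bind DNA together with Pbx, Meis and Pknox proteins.

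Messenger RNA was measured by bulk sequencing in whole uterus, ovary, hypothalamus and pituitary of C57BL6 females 8 to 10 weeks old, killed 2.5 days after mating. Each tissue had 3 libraries from mice labelled wild type and 3 from mice labelled as knockouts of Kdm4a, a histone demethylase gene, which gave 24 libraries in 8 groups. All females, of both genotypes, had been mated, and the labels state neither the knockout allele nor whether the tissues came from the same animals. They call the libraries of a group biological replicates and state that tissues were cleaned of fat.

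Total counts ranged from 13201596 to 23865382 per library. Kdm4a was counted in every library. The wild-type uteri had 89.5, 88.7 and 79.0 CPM of it (CPM, the count scaled to a library's normalised total), and the uteri labelled knockout had 58.8, 59.1 and 64.0 CPM, without overlap. The difference was a log2 value of -0.50 (SE 0.12, edgeR adjusted p = 0.122). Its ranges overlapped in the ovary (69.9 to 74.9 against 33.4 to 79.1 CPM), the hypothalamus (28.6 to 44.6 against 32.9 to 66.9 CPM) and the pituitary (50.04 to 58.8 against 47.04 to 69.2 CPM). Since these counts do not separate the genotypes outside the uterus, the term KO-labelled is used for the knockout group. Markers of each labelled tissue were present in its libraries, with summed levels of 2702 to 4491 CPM for 12 uterine genes, 7063 to 19972 CPM for 14 ovarian genes and 1007 to 1896 CPM for 12 hypothalamic genes in the matching tissue. In the pituitary the hormone genes Prl and Gh took 34.7 to 54.8% of the counts. Ribosomal RNA (Rn45s) made up 3.87% of the counts in ovarian KO-labelled library 2 and 1.21% of those in hypothalamic KO-labelled library 2, and at most 0.287% in the other libraries.

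The members of a paralog group are close relatives, so their sequences were compared. The read length is not given here, so this likeness does not show how well reads were assigned. Paralog group 10 is shown because its 3 genes had different tissue patterns, with Hoxa10 highest in the uterus, Hoxc10 higher in the ovary and Hoxd10 among the 5 highest per kb in both. The homeoboxes, the 180 bases that encode the DNA-binding homeodomain, were read from the GENCODE M21 transcripts (GRCm38) and lie in exon 2 of each gene, at chr6:52232554-52232733 on the minus strand for Hoxa10, at chr15:102970848-102971027 on the plus strand for Hoxc10 and at chr2:74694141-74694320 on the plus strand for Hoxd10. Capitals mark bases unlike those of Hoxa10 at the same place.
Hoxa10: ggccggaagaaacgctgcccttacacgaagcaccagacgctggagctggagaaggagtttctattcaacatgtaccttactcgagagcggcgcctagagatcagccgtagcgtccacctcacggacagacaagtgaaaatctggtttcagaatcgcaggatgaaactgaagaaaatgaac
Hoxc10: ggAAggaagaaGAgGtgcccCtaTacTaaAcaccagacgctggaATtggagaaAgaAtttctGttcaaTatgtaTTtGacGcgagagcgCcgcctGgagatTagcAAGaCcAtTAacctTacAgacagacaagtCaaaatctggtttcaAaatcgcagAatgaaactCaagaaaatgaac
Hoxd10: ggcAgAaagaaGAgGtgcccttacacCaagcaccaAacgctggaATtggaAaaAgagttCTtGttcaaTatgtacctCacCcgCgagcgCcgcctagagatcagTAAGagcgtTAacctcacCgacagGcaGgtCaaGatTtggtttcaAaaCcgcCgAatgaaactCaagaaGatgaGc
Hoxc10 differed from Hoxa10 at 35 of the 180 bases (80.56% identity) and Hoxd10 at 38 (78.89%). Over whole transcripts, the longest run of identical bases between genes of different clusters was 52 bases, shared by Hoxa6 and Hoxb4, and 2 of 569 such pairs reached 50 bases. Annotated exons overlapped within a cluster more often. Other genes covered 35.0% of the exon bases of Hoxa11 (the antisense RNA Hoxa11os), 52.9% of Hoxb3, 62.8% of Hoxd3 and 52.3% of Hoxd4. Limited to genes whose symbols were among those counted, the covered part was 35.0, 0, 9.76 and 13.2% in the same order. The kit did not mark strand, so reads from these Hox genes and their antisense partners cannot be told apart. The values of Hoxa11 and Hoxb3 are uncertain for this reason. So are those of Hoxd3 and Hoxd4, whose exons also overlap each other.

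Levels are given in CPM, scaled over all 24 libraries, and levels of different genes are compared in CPM per kb of annotated exon. Exon lengths were those of GENCODE M21, while the annotation behind the deposited counts was not stated in the sources used here. Orders and shares per kb therefore depend on these lengths. In wild-type uterus Hoxa9 exceeded Hoxd10 in CPM (120 against 112) but took rank 8 per kb, where Hoxd10 took rank 3. Wild-type uterus held 1588 ± 106 CPM of Hox transcripts (SD, n = 3) and wild-type ovary 249 ± 22.1 CPM. Wild-type hypothalamus held 1.02 ± 0.396 CPM and wild-type pituitary 2.78 ± 2.05 CPM, which are sums of 8 to 22 and 15 to 69 counts per library. In the uterus 28 of the 39 genes had over 3 counts in all 6 libraries, in the ovary 27, in the pituitary 1 and in the hypothalamus 0.

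**Figure D1:**
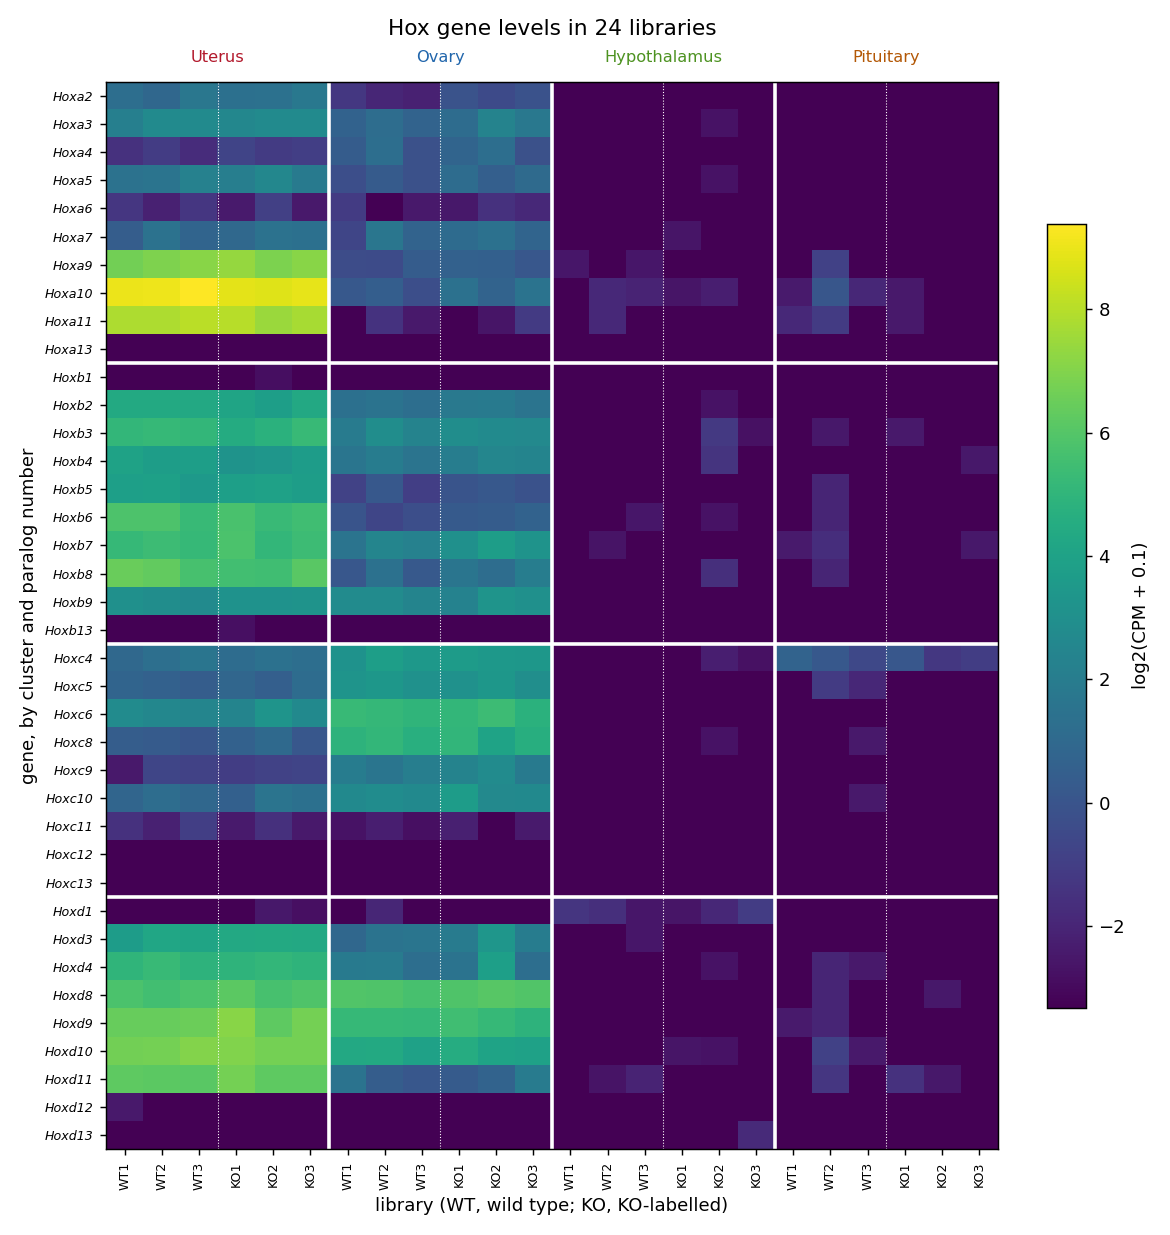
Level of each of 38 Hox genes (rows, by cluster and paralog number) in each of the 24 libraries (columns) as log2(CPM + 0.1). The uterine libraries are bright at Hoxa9 to Hoxa11, Hoxb6 to Hoxb8 and Hoxd8 to Hoxd11, the ovarian ones at Hoxc6, Hoxc8, Hoxd8 and Hoxd9, and the hypothalamus and pituitary are near 0 counts throughout.

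In the uterus the highest level per kb was that of Hoxa10, which is required for the decidual response of the stroma. Its wild-type libraries were at 518, 539 and 668 CPM and its KO-labelled ones at 462, 437 and 484 CPM. Hoxa11, its neighbour, with a role in stromal and glandular development, was at 224, 223 and 265 CPM in wild-type libraries and at 259, 180 and 213 CPM in KO-labelled ones. The Hoxa10 groups were apart, with every KO-labelled library below the wild-type ones, while those of Hoxa11 overlapped. Per kb of exon the wild-type level was 176 ± 24.8 CPM for Hoxa10 and 104 ± 10.6 CPM for Hoxa11 (SD, n = 3). The antisense RNA Hoxa11os, which overlaps Hoxa11, measured 163 ± 14.1 CPM in wild-type uterus and 0.0526 ± 0.0521 CPM in wild-type ovary.

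The next 2 genes by level per kb belonged to the Hoxd cluster, whose genes act in limb and urogenital development. Hoxd10 measured 101, 107 and 129 CPM in wild-type libraries, against 127, 106 and 106 CPM in KO-labelled ones. Hoxd9 measured 85.6, 86.9 and 91.6 CPM in wild-type libraries, against 139, 73.9 and 104 CPM in KO-labelled ones. Both pairs of groups overlapped. Per kb, wild-type Hoxd10 stood at 61.9 ± 7.95 and Hoxd9 at 41.2 ± 1.47 CPM (SD, n = 3). The 3 wild-type libraries kept these 4 genes apart from each other and from the fifth in the order of levels per kb. The following 6 genes, Hoxb8, Hoxb6, Hoxb7, Hoxa9, Hoxd8 and Hoxd11, lay between 27.9 and 17.2 CPM per kb, and each overlapped the next. Hoxd4, Hoxb3 and Hoxb2 came after them at 11.2, 8.15 and 5.93 CPM per kb.

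Within the Hoxa cluster the uterine level changed abruptly between neighbouring genes. Hoxa9, which marks the oviduct end of the tract in the embryo, measured 18.2, 21.9 and 24.7 CPM per kb in the wild-type libraries. Hoxa7, the next gene towards the low paralog numbers, measured 0.431, 0.932 and 0.552 CPM per kb there, so every library was far higher at Hoxa9. Hoxa2 to Hoxa6 had wild-type uterine means of 0.174 to 1.81 CPM per kb. The Hoxb cluster, whose genes pattern hindbrain and trunk, was more even, with means of 4.85 to 27.9 CPM per kb from Hoxb2 to Hoxb8 and 2.88 CPM per kb at Hoxb9. Hoxb8 and Hoxb6 had wide spreads, from 19.4 to 33.6 and from 19.02 to 29.1 CPM per kb over the 3 wild-type libraries. Among Hoxc4 to Hoxc11 the means were 0.130 to 2.50 CPM per kb, and Hoxc6 was the highest.

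The uterine profile ended sharply within the Hoxa cluster. Hoxa13, the next gene after Hoxa11 and the marker of the lower tract, had 0 counts in all 24 libraries, which in the uterus allows levels of up to 0.119 to 0.154 CPM by a limit of 3 counts per library. Hoxc12 and Hoxc13 also had 0 counts in all 24 libraries, and Hoxb1, Hoxb13 and Hoxd12 had at most 3 counts in any library. Hoxd13 was at 0 in all uterine and ovarian libraries. Squamous markers of cervix and vagina summed to 3.28 to 9.73 CPM over 8 genes in the 6 uterine libraries.

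The sequences before the starts of Hoxa11 and Hoxa13 are shown because these neighbours were the highly expressed and the undetected side of that edge. They are the 250 bases upstream of each start on the minus strand from RefSeq (GRCm38.p6), at chr6:52245811-52246060 for Hoxa11 and chr6:52260881-52261130 for Hoxa13, with CG dinucleotides in capitals.
Hoxa11: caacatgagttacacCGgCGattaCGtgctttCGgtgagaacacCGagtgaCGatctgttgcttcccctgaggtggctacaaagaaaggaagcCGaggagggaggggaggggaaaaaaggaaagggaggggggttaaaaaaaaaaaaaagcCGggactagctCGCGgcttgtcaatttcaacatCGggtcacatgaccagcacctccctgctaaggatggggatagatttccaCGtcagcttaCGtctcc
Hoxa13: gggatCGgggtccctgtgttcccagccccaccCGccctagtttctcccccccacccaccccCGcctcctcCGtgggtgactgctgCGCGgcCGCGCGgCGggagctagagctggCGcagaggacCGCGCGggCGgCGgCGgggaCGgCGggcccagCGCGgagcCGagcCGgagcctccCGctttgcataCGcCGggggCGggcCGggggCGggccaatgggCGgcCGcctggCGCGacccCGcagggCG
The Hoxa11 stretch held 13 CG dinucleotides and that of Hoxa13 35, so the undetected gene had the denser sequence. The RefSeq table matched 22 of the 39 members. Over windows from 250 bases before to 50 after the start, the median number of CG dinucleotides was 13.5 in these 22 and 7 in all 27025 genes. The letters TGATTNAT, of the kind bound by Pbx with Hox proteins, were found on either strand in 1 of the 22 windows (4.545%) and in 3.36% of all windows. The letters TAATTA, bound by many homeodomains, were found in 1 of the 22 (4.545%) and in 5.314% of all.

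In the ovary the leading genes were of the Hoxd and Hoxc clusters. Hoxd8 measured 60.8, 58.2 and 51.9 CPM in wild-type libraries, against 58.3, 68.8 and 61.4 CPM in KO-labelled ones. Hoxd9 measured 35.9, 36.3 and 35.5 CPM in wild-type libraries, against 45.5, 36.3 and 29.6 CPM in KO-labelled ones. The groups overlapped for both, and the Hoxd9 libraries spread more widely when KO-labelled. Hoxc6, which acts with its neighbours in trunk patterning, measured 37.2, 35.6 and 31.6 CPM in wild-type libraries, against 34.5, 41.9 and 27.7 CPM in KO-labelled ones. Hoxc8, also a trunk patterning gene, measured 29.7, 34.4 and 26.1 CPM in wild-type libraries, against 33.0, 16.6 and 25.1 CPM in KO-labelled ones, with the lowest value in KO-labelled library 2. Per kb the wild-type levels were 20.8 ± 1.66 CPM for Hoxd8, 16.8 ± 0.188 for Hoxd9, 14.5 ± 1.21 for Hoxc6 and 10.6 ± 1.47 for Hoxc8 (SD, n = 3). The first 4 stood apart from each other in the wild-type libraries, while Hoxc8 overlapped Hoxd10, the fifth, at 10.4 CPM per kb. Hoxc4, Hoxc10, Hoxc5, Hoxb7 and Hoxb9 followed between 4.34 and 2.50 CPM per kb, each overlapping the next. The remaining 22 genes with counts in wild-type ovary had means from 0.0287 CPM per kb for Hoxd1 to 1.54 CPM per kb for Hoxc9, and the other 7 were at 0.

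The clusters took very different shares of the summed level per kb in these 2 organs. In wild-type uterus the Hoxa cluster took 53.4 ± 3.66%, Hoxb 18.6 ± 3.63%, Hoxc 0.975 ± 0.0682% and Hoxd 27.0 ± 0.0423% (SD, n = 3). In wild-type ovary Hoxa took 3.20 ± 0.762%, Hoxb 9.62 ± 1.37%, Hoxc 37.3 ± 0.294% and Hoxd 49.9 ± 2.11%. The position along the cluster differed as well. Paralogs 9 to 13 took 74.2 ± 3.77% in wild-type uterus and 35.5 ± 1.32% in wild-type ovary, where paralogs 4 to 8 took 61.3 ± 0.952%. In KO-labelled libraries the shares of Hoxa, Hoxb, Hoxc and Hoxd were 49.7, 17.8, 1.20 and 31.3% in the uterus and 4.53, 14.4, 32.8 and 48.2% in the ovary. Across the 39 genes, the rank correlation of mean CPM between wild-type and KO-labelled groups was 0.992 in the uterus and 0.991 in the ovary. Between wild-type uterus and wild-type ovary it was 0.545. Mean CPM was ranked here without division by exon length. These correlations run over genes, which share libraries and neighbourhoods and are not replicates.

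**Figure D2:**
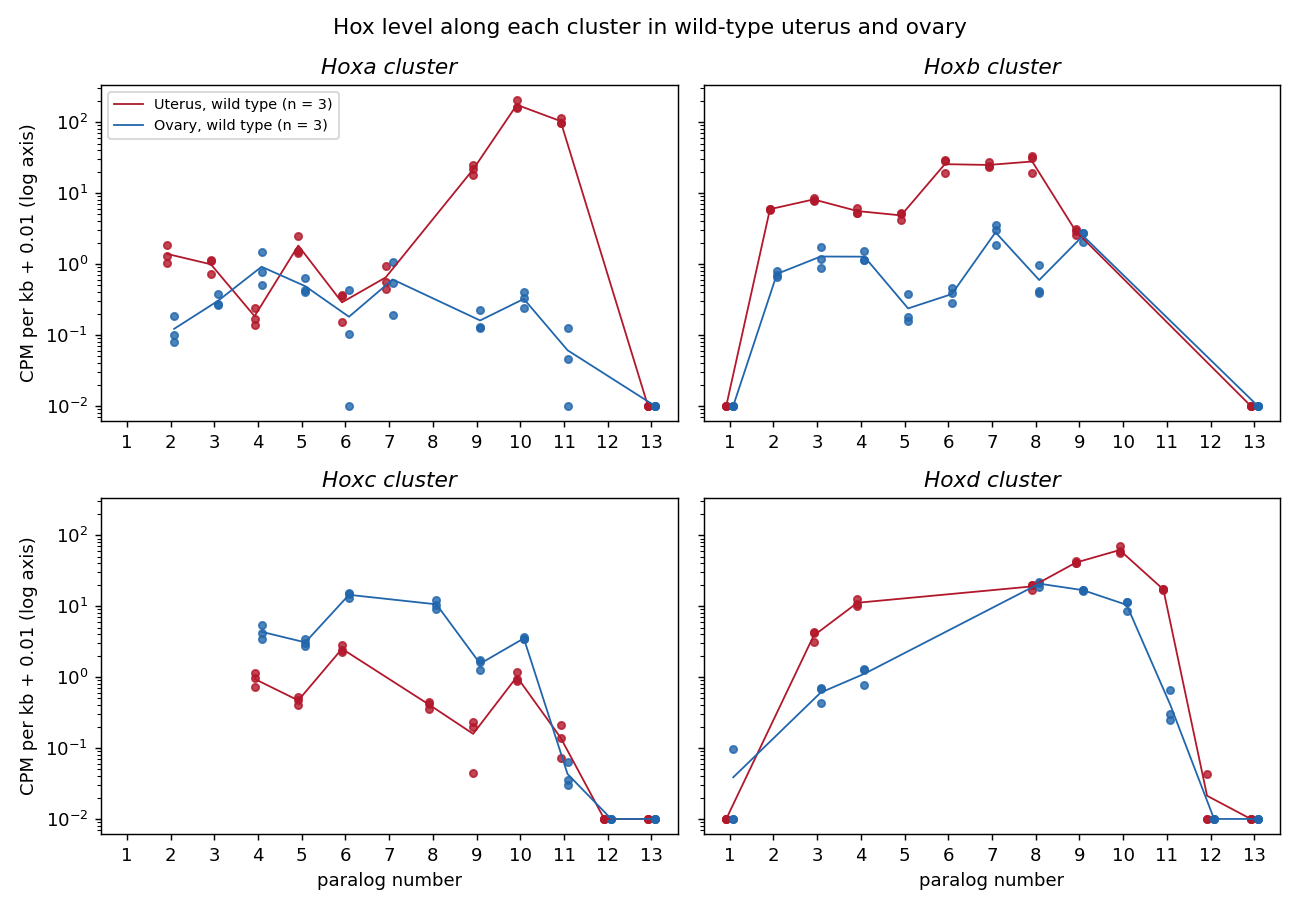
Wild-type level in CPM per kb of exon (log axis, 0.01 added) along each cluster by paralog number, for uterus (red) and ovary (blue), with 1 point per library and a line through the means of 3. Uterine levels rise to 176 CPM per kb at Hoxa10 and drop to 0 at Hoxa13, and the ovary lies above the uterus from Hoxc4 to Hoxc10.

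**Figure D3:**
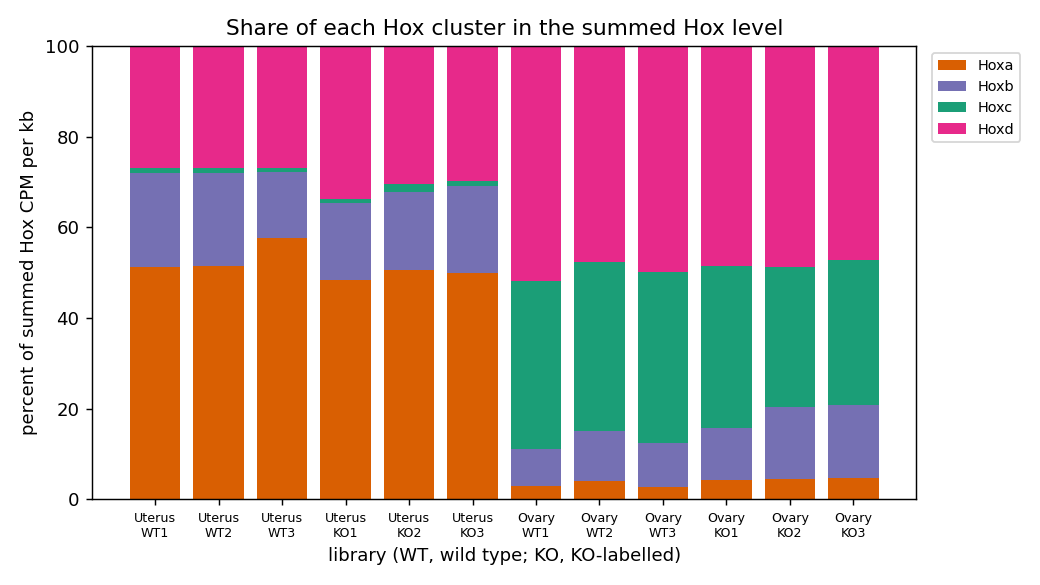
Share of each cluster in the summed Hox CPM per kb of each library, in percent, for the 6 uterine and 6 ovarian libraries. The Hoxc share is near 1% in wild-type uterus and near 37% in wild-type ovary.

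Tissues were compared in the 12 wild-type libraries in 1 edgeR fit over 16399 genes at an FDR of 0.05, which tested 29 of the 39 Hox genes. A gene that passed the filter on low counts only through the tissue where it is high had to differ, so the counts below describe the pattern. In bulk tissue, a difference in the number of cells that express a gene cannot be told apart from a difference in RNA per cell. Between uterus and ovary, 25 Hox genes passed, where 59.1% of all genes tested passed. Of these, 18 were higher in the uterus (32.7% of all genes) and 7 higher in the ovary (26.4%).

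The 18 genes higher in the uterus came from the Hoxa (6), Hoxb (7) and Hoxd (5) clusters. Hoxa11 had 15822 counts in the 3 wild-type uterine and 7 in the 3 ovarian libraries. Hoxa10 had 38235 counts against 62, at 575 ± 81.2 and 1.02 ± 0.269 CPM, a log2 difference of 9.16 (SE 0.38, edgeR adjusted p = 3.08e-10). Hoxa9, the oviduct-side neighbour, was 141-fold higher, and Hoxb6 and Hoxb8, trunk patterning genes, were 69.7-fold and 48.6-fold higher in the uterus. Within the Hoxd cluster the log2 difference was 1.31 for Hoxd9, 2.59 for Hoxd10 and 5.48 for Hoxd11, a limb and kidney gene, after Hoxd8, which did not pass. Hoxd3 and Hoxd4, whose values are uncertain, had 2.69 and 3.36, so the difference did not follow the paralog number along the whole cluster. Hoxd8 had 3485 counts in wild-type uterus and 3513 in wild-type ovary, with a log2 difference of -0.11 (SE 0.19, edgeR adjusted p = 0.637). Hoxa7 and Hoxb9 did not pass either, with log2 differences of 0.11 (SE 0.65) and 0.23 (SE 0.31).

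All 6 tested Hoxc genes were higher in the ovary, together with Hoxa4. Hoxc8 measured 30.1 ± 4.16 CPM in wild-type ovary and 1.12 ± 0.136 CPM in wild-type uterus, a log2 difference of -4.71 for uterus over ovary (SE 0.31, edgeR adjusted p = 6.87e-08). Hoxc9 was 10.1-fold higher in the ovary, Hoxc5 6.59-fold, Hoxc6 5.71-fold, Hoxc4 4.61-fold and Hoxc10 3.46-fold. Hoxa4 was 4.98-fold higher, on 86 counts in the 3 ovarian and 19 in the 3 uterine libraries. The group 10 paralogs shown above thus differed in opposite directions, with Hoxa10 and Hoxd10 higher in the uterus and Hoxc10 higher in the ovary. Adipose markers summed to 16.8, 950 and 293 CPM over 8 genes in the 3 wild-type ovarian libraries. In the same order, Hoxc6 was at 37.2, 35.6 and 31.6 CPM and Hoxc8 at 29.7, 34.4 and 26.1 CPM, and the part of adipose tissue in these values was not tested. Oviduct and ciliated cell markers summed to 14.2 to 33.2 CPM in wild-type ovary and 262 to 288 CPM in wild-type uterus over 10 genes.

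In the KO-labelled libraries the same contrast gave 23 Hox calls, where 40.2% of all genes passed, all of them among the 25 and in the same direction, and Hoxa3 and Hoxb4 were called in wild type alone. Neither of these 2 genes passed the interaction test given below. Against hypothalamus and pituitary, the KO-labelled uterus gave 28 and 29 Hox calls, where 65.5% and 59.5% of all genes passed. The KO-labelled ovary gave 28 and 28, where 61.3% and 50.4% did.

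Against the 2 brain-side tissues, nearly every tested Hox gene was higher in the reproductive organs. The uterus exceeded the hypothalamus for 28 of 29 genes (75.7% of all genes passed in either direction, 38.9% higher in the uterus) and the pituitary for 29 (69.3% and 35.6%). The ovary exceeded the hypothalamus for 27 (71.4% and 36.2%) and the pituitary for 27 (61.6% and 29.9%). No Hox gene was higher in the hypothalamus or pituitary in these 4 contrasts, where 36.8%, 33.7%, 35.2% and 31.8% of all genes were, in the same order. Hoxd10 had 0 counts in wild-type hypothalamus, against which uterus was at least 560-fold and ovary at least 94.5-fold higher by the limit of 3 counts per library. Hoxc6 was at 0 in all hypothalamic and pituitary libraries, and wild-type ovary was at least 174-fold and at least 140-fold higher. Among the exceptions, Hoxa11 passed in neither contrast of the ovary with these tissues, and Hoxa10 was not called between ovary and pituitary (log2 difference 1.18, SE 0.53, edgeR adjusted p = 0.0687).

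Hox counts in the hypothalamus were few. Hoxd1, a gene of sensory neuron wiring, was counted 4, 4 and 1 times in the wild-type libraries and 1, 3 and 8 times in the KO-labelled ones, which overlapped. Hoxa10 had 0, 3 and 2 counts in wild-type hypothalamus, and 1, 2 and 0 when KO-labelled. Hoxa11 had 0, 3 and 0 counts, and 0 in all 3 KO-labelled libraries. Neither gene exceeded 3 counts in any of them. In KO-labelled library 2, Hoxb3, Hoxb4 and Hoxb8 had 6, 5 and 4 counts, and in KO-labelled library 3 Hoxd13 had 4, while these genes had at most 1 count in the other hypothalamic libraries. Hindbrain markers summed to 9.57 to 13.1 CPM in wild-type and 11.5 to 16.2 CPM in KO-labelled hypothalamus over 9 genes, and their part in these counts was not tested.

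In the pituitary the leading gene was Hoxc4, whose product acts in cervical patterning. The wild-type libraries held 17, 14 and 7 counts of it and the KO-labelled ones 12, 4 and 5, and it was the 1 Hox gene with over 3 counts in all 6 libraries. Hoxa10, Hoxa11 and Hoxd10 came next per kb in wild type, and wild-type library 2 held most of their counts. The wild-type libraries held 1, 13 and 2 counts of Hoxa10, 2, 5 and 0 of Hoxa11, and 0, 6 and 1 of Hoxd10. The KO-labelled ones held 1, 0 and 0 of Hoxa10, 1, 0 and 0 of Hoxa11, and 0 of Hoxd10. That library had 45 counts over the 10 Hox genes that led in the uterus, or 0.235% of their wild-type uterine level. The other 5 pituitary libraries had 1 to 5 counts, or 0.00550 to 0.0317%.

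**Figure D4:**
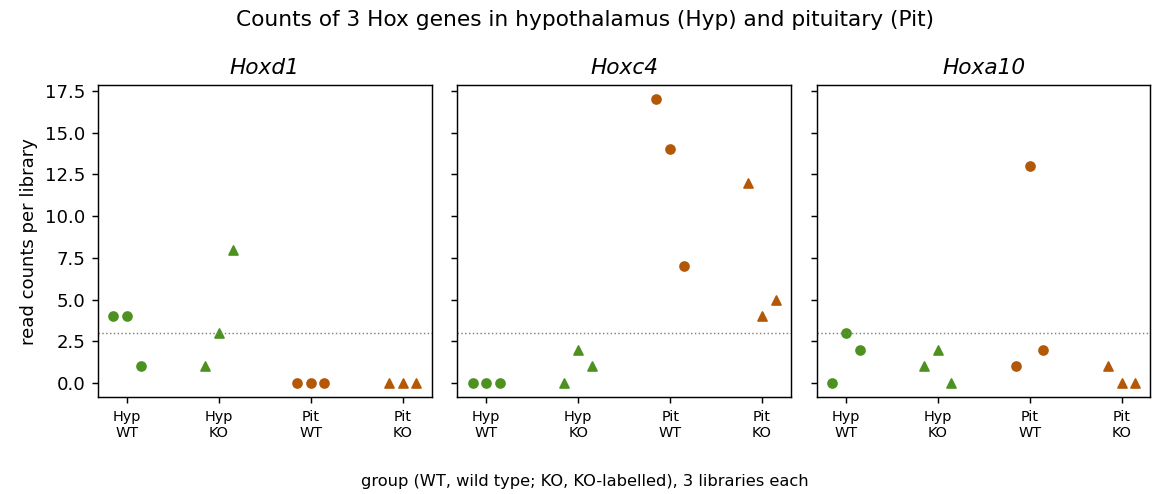
Read counts per library of Hoxd1, Hoxc4 and Hoxa10 in hypothalamus (green) and pituitary (brown), wild-type as circles and KO-labelled as triangles, with a dotted line at 3 counts. Hoxc4 exceeds the line in all 6 pituitary libraries, while the high Hoxa10 value of 13 belongs to 1 wild-type pituitary library.

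Between hypothalamus and pituitary, 6 of 29 Hox genes passed, where 61.1% of all genes did. Of these, 5 were higher in the pituitary, Hoxc4, Hoxc5, Hoxd4, Hoxd9 and Hoxd10, where 30.2% of all genes were, against 30.8% higher in the hypothalamus. Hoxc4 had 38 counts in the 3 wild-type pituitary and 0 in the 3 wild-type hypothalamic libraries, at least 5.24-fold by the limit of 3 counts per library. The other 4 rested on 3 to 7 counts against 0. With the KO-labelled libraries 2 of these calls were made, Hoxc4 among them, where 50.6% of all genes passed, and without wild-type pituitary library 2 the count also fell to 2.

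The comparison of genotypes asked whether Hox levels differed between wild-type and KO-labelled mice at this time. No Hox gene passed an FDR of 0.05 in any tissue by edgeR, DESeq2 or limma-voom. The filter on low counts left 28 Hox genes to test in the uterus, 28 in the ovary and 0 in the hypothalamus and pituitary. Over all genes tested by edgeR, 0.349% passed in the uterus, 0% in the ovary, 0% in the hypothalamus and 0.0424% in the pituitary. In the authors' deposited tables of uterus, ovary and hypothalamus, no Hox gene passed an adjusted p of 0.05 either, where 3.49% of all genes with an adjusted p passed in the uterus, 0.402% in the ovary, 0.0372% in the hypothalamus and 0.33% in the pituitary. The authors' deposited tables gave an adjusted p to 29 Hox genes in the uterus, 22 in the ovary and 21 in the hypothalamus, but to 0 in the pituitary, where none could pass. The lowest adjusted p of a Hox gene in the authors' deposited table was 0.0973 in the ovary (Hoxb7) and 0.324 in the uterus.

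In the uterus the differences were small and ran both ways. The log2 difference, KO-labelled over wild type, was above 0 for 18 of 28 Hox genes (51.6% of all genes) and below 0 for 10, with a median of 0.17 beside 0.01 over all genes. The median was 0.09, 0.05 and 0.11 without KO-labelled libraries 1, 2 and 3 in turn, and without wild-type library 1 the log2 difference was above 0 for 15 genes. With all 6 libraries it ranged from -0.46 for Hoxb8 to 0.43 for Hoxa5. By edgeR 1 gene had an unadjusted p under 0.05, where 12.7% of all genes did. That was Hoxb4, known for its action in blood stem cells. Its wild-type libraries were at 15.9, 13.4 and 13.6 CPM and its KO-labelled libraries at 9.17, 10.1 and 12.8 CPM. All its KO-labelled libraries were below the wild-type ones, with a log2 difference of -0.42 (SE 0.19, edgeR adjusted p = 0.393). For Hoxa10, whose values are given above and whose groups were apart as well, the log2 difference was -0.32 (SE 0.15, 95% interval -0.65 to 0.01, edgeR adjusted p = 0.413). Its value without wild-type library 3, the highest, was -0.20.

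The other highly expressed uterine genes had log2 differences of -0.13 (Hoxa11, SE 0.16), 0.26 (Hoxd9, SE 0.20) and 0.0018 (Hoxd10, SE 0.14). The 95% interval was -0.49 to 0.22 for Hoxa11 and -0.31 to 0.32 for Hoxd10. Hoxa11 was at -0.27 without KO-labelled library 1 and at -0.02 without KO-labelled library 2, and Hoxd9 at 0.02 and 0.46 without the same libraries. Groups did not overlap for 3 Hox genes that were higher in KO-labelled uterus, Hoxb9, Hoxd3 and Hoxd11 (9.4% of all genes were), and for 2 that were lower, Hoxa10 and Hoxb4 (10.1% of all genes). Without KO-labelled library 1, an alternative chosen after seeing the data, these counts were 4 and 3, with 13% and 15.8% of all genes.

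In the ovary the differences leaned one way without passing the threshold. The log2 difference was above 0 for 24 of 28 Hox genes, where 52.5% of all genes were above 0, with a median of 0.39 beside 0.03 over all genes. All 8 tested Hoxa and all 8 tested Hoxb genes were above 0, as were 5 of 6 Hoxd and 3 of 6 Hoxc genes. Of the 16 Hoxa and Hoxb genes together, 14 were above 0 without wild-type library 1 or without wild-type library 3, and 15 without KO-labelled library 2. These counts run over genes, which share libraries and neighbourhoods and are not replicates. Cluster medians were 0.78 for Hoxa, 0.57 for Hoxb, 0.26 for Hoxd and 0.0044 for Hoxc. By edgeR 5 of the 28 had an unadjusted p under 0.05, where 7.68% of all genes did. The lowest adjusted p was 0.597.

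Hoxb7, a trunk patterning gene, had the smallest p. Its wild-type ovaries were at 2.87, 5.45 and 4.63 CPM and its KO-labelled ovaries at 8.22, 13.3 and 9.22 CPM. Every KO-labelled library was above every wild-type one, with a log2 difference of 1.24 (SE 0.34, 95% interval 0.45 to 2.04, edgeR adjusted p = 0.597). Hoxa10 measured 1.04, 1.28 and 0.744 CPM in wild-type libraries, against 2.56, 1.52 and 2.73 CPM in KO-labelled ones, again without overlap, with a log2 difference of 1.15 (SE 0.43, edgeR adjusted p = 0.597). The other 3 with an unadjusted p under 0.05 were Hoxa2, Hoxa5 and Hoxd3, with log2 differences of 1.94, 1.04 and 1.24. Hoxd3 measured 1.77, 2.78 and 2.93 CPM in wild-type ovary and 3.76, 10.02 and 3.98 CPM when KO-labelled, and without KO-labelled library 2 its log2 difference was 0.63. Hoxa2 rests on 12 counts in wild type, and the exons of Hoxd3 overlap those of other genes. By contrast, the leading ovarian genes had log2 differences of 0.14 (Hoxd8, SE 0.17), 0.04 (Hoxd9, SE 0.20), -0.01 (Hoxc6, SE 0.21) and -0.28 (Hoxc8, SE 0.27). Without KO-labelled library 2 that of Hoxc8 was -0.05.

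**Figure D5:**
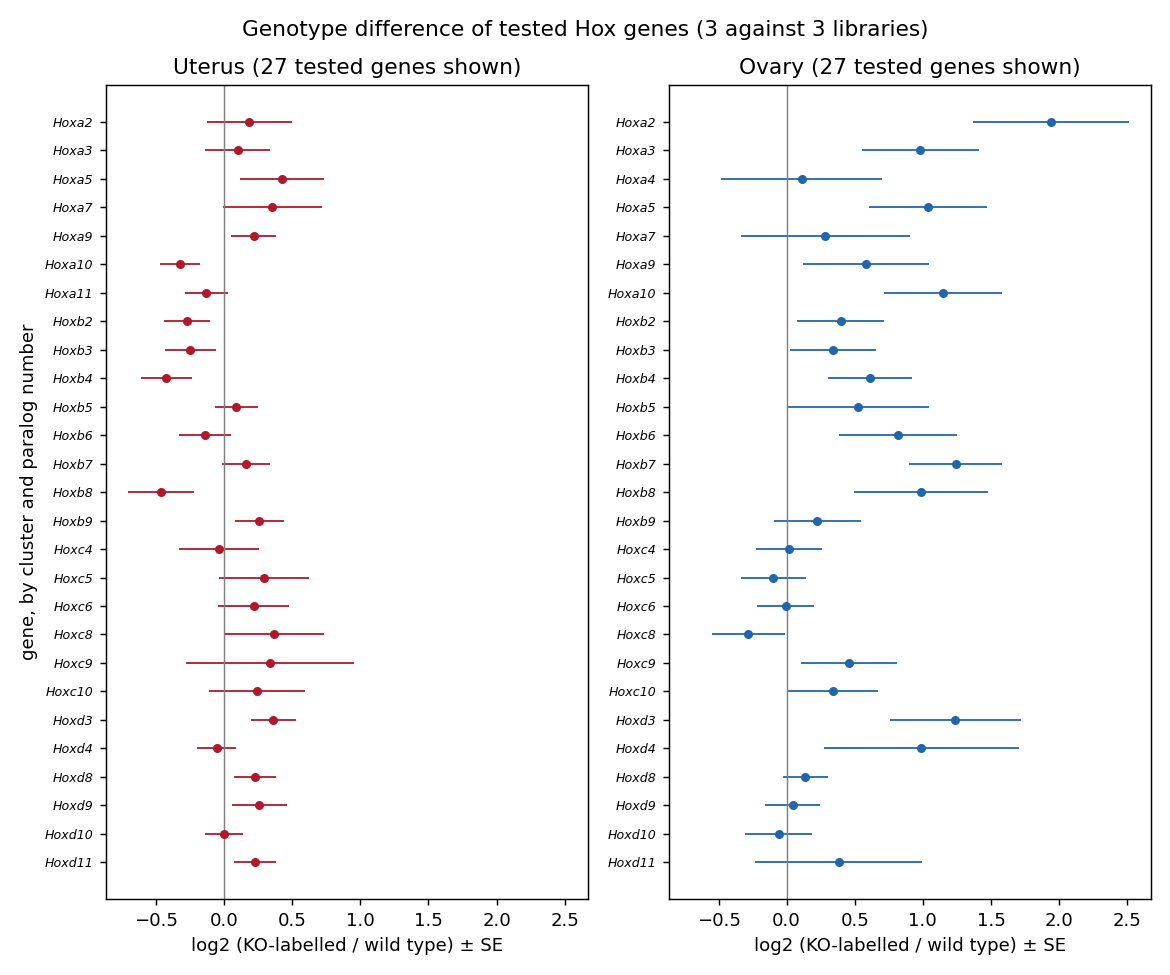
Log2 difference, KO-labelled over wild type, of 27 tested Hox genes in uterus (left) and ovary (right), with its SE from edgeR (3 against 3 libraries). The uterine values lie on both sides of 0 between -0.46 and 0.43, and the 15 Hoxa and Hoxb values shown for the ovary all lie above 0 with wider errors.

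Groups did not overlap for 8 of the 28 genes in the ovary, all higher in KO-labelled libraries (8.31% of all genes were so), and for 0 that were lower (9.34%). They were Hoxa2, Hoxa5, Hoxa10, Hoxb2, Hoxb4, Hoxb6, Hoxb7 and Hoxd3. Without KO-labelled library 2, which had the most Rn45s and was left out after seeing the data, 9 genes were higher and 0 lower, with 15.2% and 15.4% of all genes, and 23 of 28 log2 differences were above 0. In that library Hoxd4 had 226 counts, against 72 and 53 in the other KO-labelled and 55 to 72 in the wild-type ovaries, and without it the log2 difference of Hoxd4 was -0.35 in place of 0.99. Leaving out any 1 library left 20 to 26 Hox genes above 0. Marker sums varied among these libraries as well. Uterine markers summed to 532, 485 and 533 CPM over 12 genes in wild-type ovary and to 850, 470 and 642 CPM in KO-labelled ovary. Blood and immune markers summed to 212, 148 and 270 CPM over 10 genes in wild-type and to 374, 345 and 254 CPM in KO-labelled ovary. The 14 ovarian markers summed to 12653, 7063 and 11056 CPM in wild-type and to 7522, 19972 and 18925 CPM in KO-labelled ovary. All 8 adipose markers had log2 differences below 0, with a median of -1.26, and their sums were 293, 26.3 and 203 CPM in KO-labelled ovary. The groups overlapped in each of these sums. KO-labelled library 2 had the least of the uterine markers among the 6, and of the 3 KO-labelled libraries it had the highest level of Hoxb7 and the lowest of Hoxa10. The part of these marker groups in the Hox values was not tested.

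An interaction test over the 24 libraries asked whether the genotype difference itself depended on the tissue. By edgeR 0 of 29 Hox genes passed (0.053% of 16971 genes did), and 6 had an unadjusted p under 0.05, where 7.37% of all genes did. The smallest p was that of Hoxa10, 0.00112 (edgeR adjusted p = 0.267). Its log2 difference was -0.32 in the uterus and 1.15 in the ovary, and its pituitary counts were 1, 13 and 2 in the wild-type group against 1, 0 and 0 in the KO-labelled group. DESeq2 called Hoxa10 alone among the Hox genes, at an adjusted p of 0.000538. The tools thus disagreed on this gene. The share of all genes that DESeq2 called is not given here, so its call cannot be set beside that share.

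The genes around Hox control were expressed in all 4 tissues, unlike the Hox genes. Hox cofactors of the Pbx, Meis and Pknox families summed to 669 to 736 CPM over 9 genes in wild-type uterus, 435 to 485 in ovary, 326 to 431 in hypothalamus and 348 to 414 in pituitary. Pbx2 stood at 19.9, 11.2, 11.7 and 15.6 CPM per kb in wild-type uterus, ovary, hypothalamus and pituitary. In the same order, Meis1 was at 5.66, 3.23, 0.970 and 0.792 CPM per kb, and Meis2 at 8.80, 2.16, 5.41 and 2.57. Pbx3, Pbx4, Meis3, Pknox1 and Pknox2 stood at 2.06, 1.14, 7.68, 5.16 and 9.47 CPM per kb in wild-type uterus.

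By genotype, 0 of the 9 cofactors, 0 of 30 Polycomb genes and 0 of 17 trithorax genes passed in any tissue by edgeR, where at most 0.349% of all genes passed, so these counts are no result about the lists. The smallest p among the cofactors in the uterus was that of Pbx3, with a log2 difference of 0.47 (SE 0.16, edgeR adjusted p = 0.263). Among Polycomb genes it was that of Ezh2, the methyltransferase subunit, with 0.60 (SE 0.18, adjusted p = 0.194) in the uterus. The 30 Polycomb genes summed to 1496 to 2110 CPM and the 17 trithorax genes to 997 to 1686 CPM across the wild-type libraries of the 4 tissues. In KO-labelled ovary the Polycomb sum was 1589 to 1846 CPM, below the 1949 to 2110 CPM of wild-type ovary. The trithorax sum was 941 to 1286 CPM there, below 1303 to 1362 CPM. Both sums were lowest in KO-labelled ovarian library 2, which had the most Rn45s. The groups overlapped for both sums in uterus, hypothalamus and pituitary, and the sums were not tested. The genes that flank the clusters summed to 664 to 693 CPM over 14 genes in wild-type uterus and 1346 to 1377 CPM in wild-type hypothalamus, and 0 of them passed by genotype. Their sum was thus high in the hypothalamus, where the Hox sum was near 0, although 1 or 2 of the 14 had no count in each uterine, ovarian and pituitary library. The 17 matched noncoding and Evx genes within the clusters summed to 154 to 183 CPM in wild-type uterus, 4.84 to 5.61 in ovary and at most 0.518 in hypothalamus and pituitary. The uterine sum was nearly all Hoxa11os, and the other 16 summed to 6.02 to 6.64 CPM in wild-type uterus and 4.84 to 5.55 CPM in wild-type ovary. By genotype, 0 of the 4 tested in the uterus passed. The 6 ParaHox and Cdx genes, relatives outside the clusters, reached at most 2.92 CPM in wild type, in the hypothalamus.

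Of 13 tested genes reported elsewhere as uterine Hox partners or targets, 1 passed by genotype in the uterus, where 0.349% of all genes did. Ptger4, a prostaglandin E2 receptor, fell from 85.5 ± 3.16 to 51.6 ± 2.53 CPM in KO-labelled uterus (SD, n = 3), a log2 difference of -0.73 (SE 0.11, edgeR adjusted p = 0.0407). The edgeR adjusted p was 0.0130 without KO-labelled library 1, but the call was lost without any 1 of the other 5 libraries, at 0.146, 0.293 and 0.183 without wild-type libraries 1, 2 and 3 and at 0.0541 and 0.0519 without KO-labelled libraries 2 and 3. It was also lost in 1 edgeR fit over all 24 libraries (adjusted p = 0.684), while the log2 difference stayed between -0.76 and -0.70 in each of these fits. Progesterone receptor Pgr, an inducer of uterine Hoxa10, measured 84.4 ± 1.69 and 102 ± 18.0 CPM there (edgeR adjusted p = 0.503).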

How the data were processed

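For each of 24 libraries the authors deposited unnormalised counts by gene symbol. Libraries were made with poly-A selection and an unstranded kit, per the labels' protocols. FastQC, Trimmomatic, the aligner STAR, the counter HTSeq, DESeq2 and the build mm10 are named by the submitters' processing notes. Their versions were not given in the sources used here. Per the file headers, the authors also deposited for each tissue a DESeq2 comparison with a signal column (the mean of counts divided by size factors), the log2 fold change with its SE, a Wald score, and raw and adjusted p-values.

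Of the entries, 27 carried a date in place of a symbol (0.122% to 0.392% of counts) and were left out. Genotypes were compared per tissue, tissues in the 12 wild-type libraries, and the interaction over 24, with edgeR 4.0.16 in R 4.3.3 (TMM, filterByExpr, robust quasi-likelihood F test, two-sided, Benjamini-Hochberg at FDR 0.05). Intervals used the t distribution with that test's degrees of freedom. CPM values used TMM over all 24 libraries and exon lengths from GENCODE M21 on the same build. At this depth 1 count is worth 0.0388 to 0.0900 CPM, and limits from 3 counts cover counting error only. Alternatives were DESeq2 1.42.0, limma-voom (limma 3.58.1), RLE scaling, other filters, Prl and Gh left out, 1 fit over all 24 libraries, the replicate number in the labels as a block, and leaving out each library. Tissue contrasts share libraries. The genotype fits and a fit of wild-type uterus against ovary were tried on counts simulated from these data. Changes were placed only in genes averaging at least 1 CPM. The other tissue contrasts and the interaction were not tried in this way.

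The members and gene lists were chosen with earlier results of these data known. Values per library are given for Kdm4a, for the 4 Hox genes highest per kb in each wild-type tissue, for the 2 with the smallest genotype p among those of at least 1 CPM, and for any past the threshold. Hoxa2, Hoxa5, Hoxd3 and Hoxd4 in the ovary were named after their values were seen. Values of 1 member and of 1 cofactor are not reported here.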

Additional observations from a re-analysis of the deposited data

Results flagged for a closer look

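Hoxa10 was singled out because its genotype difference had opposite signs in uterus and ovary, with groups that did not overlap in either. The log2 difference, KO-labelled over wild type, was -0.32 in the uterus and 1.15 in the ovary, and the uterine value ran from -0.39 to -0.20 when 1 library was left out. The tissue by genotype interaction had an adjusted p of 0.267 by edgeR and 0.000538 by DESeq2. This test uses the values on which the gene was picked, so it gives the choice no separate support. The uterine value rests on 38235 wild-type counts and the ovarian one on 62. Over all genes tested, 10.1% were lower without overlap in KO-labelled uterus and 8.31% were higher without overlap in KO-labelled ovary. The share of all genes with both traits is not given here.

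Hoxb4 showed the same pattern, with log2 differences of -0.42 in the uterus and 0.61 in the ovary. Its interaction had an adjusted p of 0.685 by edgeR and 0.289 by DESeq2, so it passed by neither tool.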

How the results depend on the processing

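The count of Hox genes called by genotype was 0 in all 4 tissues under every alternative run. In the hypothalamus and pituitary the main filter left 0 Hox genes to test. Settings that tested none there could call none. The tissue counts held within 1.5 times of those reported, except between hypothalamus and pituitary. There the count was 2 with the KO-labelled libraries in place of the wild-type ones and 2 to 6 when 1 library was left out, with 2 without wild-type pituitary library 2 and 3 without wild-type hypothalamic library 1. The cause was not tested. The interaction count was 1 by DESeq2 and 0 by edgeR under its other settings, and the cause was not tested. Signs near 0 reversed for Hoxd10 in the uterus without a filter (-0.00042), with a range of -0.084 to 0.11 when 1 library was left out. They reversed for Hoxc6 in the ovary with RLE scaling (0.0021), with a range of -0.16 to 0.15, and for Hoxd9 in the ovary, with a range of -0.13 to 0.20. The Kdm4a difference in the pituitary was 0.021 in 1 fit over 24 libraries, with a range of -0.18 to 0.094 when 1 library was left out, and Kdm4a in the uterus passed by DESeq2 (adjusted p = 0.0192). Of 105 other-setting values for single genes, 101 kept their direction and side of the threshold. When 1 library was left out, 10 single-gene values reversed and 80 stayed the same.

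Libraries with the same label number were treated as unpaired in the main fits. The correlations of their deviations ran from -0.230 to 0.201 between genotypes and from -0.0586 to 0.0806 between wild-type tissues. Between KO-labelled tissues they ran from -0.329 to 0.293, and in no pair of groups were all 3 over 0.1. Such correlations cannot show whether tissues came from the same animals. The Ptger4 call in the uterus was lost with the replicate block (edgeR adjusted p = 0.131). With the number as a replicate block, the Hox counts were 0 in each genotype comparison and in the interaction, and 25, 28, 29, 27, 27 and 6 in the tissue contrasts in the order reported.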
